A study of Drosophila melanogaster with 3 samples.

Results

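The genes described here encode RNA polymerase II, its general initiation factors and Mediator. They were chosen by symbol from the protein-coding genes of the fly annotation: Polr2 plus a letter, TfII with any ending, Taf plus digits, MED plus digits, and Tbp, Trf and Trf2. The rule took 65 of 13945 protein-coding genes on the main chromosomes, of which 13 are Polr2 genes, 9 TfII genes, 3 Tbp, Trf and Trf2, 15 Taf genes and 25 MED genes. The data are peak lists from chromatin immunoprecipitation sequencing of whole *Drosophila melanogaster* prepupae, staged no further in the labels, whose strain carries an insertion that tags the protein CG6163 with eGFP. Chromatin was pulled down with an antibody against GFP in 3 biological replicates of this 1 group, so no test between conditions was made. The labels name a possible control experiment, which was not analysed here. The whole animal was used, so a peak cannot be given to a tissue.

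RNA polymerase II transcribes protein-coding genes. It is placed on the promoter by the general factors, in which TFIID, built of TBP and the TAFs, binds core promoter DNA and TFIIA, TFIIB, TFIIE and TFIIF assemble with the polymerase. Mediator is a large complex of head, middle, tail and kinase modules that carries signals from bound transcription factors to the polymerase.

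Of the 65 genes, 21 (32.3%, exact binomial 95% interval 21.2 to 45.1, counting error only) had a summit of the conservative series list within 500 bp of an annotated transcript start, against 24.2% of all protein-coding genes. Taf10 and Taf10b shared a summit, so the 21 genes had 20 distinct strongest summits. At 20 of the 65 genes (30.8%) a summit lay within 200 bp of a start, against 18.4% of all protein-coding genes. At 19 of the 21 genes the strongest summit lay upstream of the start (90.5%), against 74.0% of all protein-coding genes with a summit. The peak overlapped a thresholded peak in each of the 3 replicates at 12 genes (18.5% of the 65), against 12.1% of all protein-coding genes. The windows printed next are those of 6 of these 12 genes, with summits outside any annotated exon. They show the A/T-rich sequence between divergent starts in which these 6 summits lie. Each is the summit with 50 bp on either side, cut at the nearest exon for MED7, from the RefSeq dm6 assembly, 5′ to 3′ on the strand of the gene, with any of the 6 searched motifs in capitals.

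MED30 (chr3L:654226-654326, minus strand): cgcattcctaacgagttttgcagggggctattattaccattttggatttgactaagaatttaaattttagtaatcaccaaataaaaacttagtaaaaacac
TfIIA-L (chr3R:27253202-27253302, plus strand): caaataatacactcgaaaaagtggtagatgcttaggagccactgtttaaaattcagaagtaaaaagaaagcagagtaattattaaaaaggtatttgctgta
Polr2B (chr3R:14125643-14125743, plus strand): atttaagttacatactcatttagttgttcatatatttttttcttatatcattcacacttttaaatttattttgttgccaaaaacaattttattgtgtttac
MED27 (chr3R:5654957-5655057, plus strand): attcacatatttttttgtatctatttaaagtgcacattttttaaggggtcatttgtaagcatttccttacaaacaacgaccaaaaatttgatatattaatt
MED17 (chr3R:18188834-18188934, plus strand): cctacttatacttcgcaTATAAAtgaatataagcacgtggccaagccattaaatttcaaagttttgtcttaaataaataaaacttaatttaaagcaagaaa
MED7 (chr3R:10761081-10761147, minus strand): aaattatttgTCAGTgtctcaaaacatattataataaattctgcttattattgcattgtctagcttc

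The conservative list held 10894 peaks, and the replicates' own thresholded lists held 7449, 7920 and 5844 peaks, 7071 ± 1088 (SD, n = 3). The number of peaks stands in for depth here, since read numbers were not used. Signal is the authors' value per peak. It ranks peaks within 1 list and is not on a common scale between lists. Replicate 1 had a summit of its own list at 19 of the 65 genes (29.2%, against 18.9% of all protein-coding genes), replicate 2 at 16 (24.6%, against 19.7%) and replicate 3 at 18 (27.7%, against 17.3%). The mean was 27.2% ± 2.35 for these genes and 18.6% ± 1.22 for all protein-coding genes (SD, n = 3). The share was above that of all protein-coding genes in each of the 3 lists. Genes are not replicates and no test was made on the list.

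**Figure D1:**
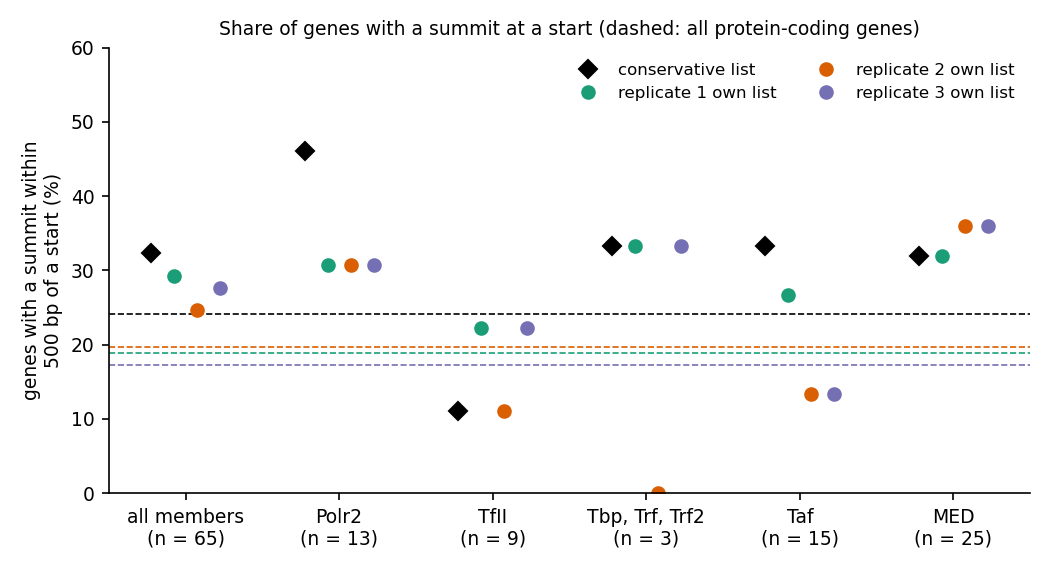
Share of genes with a summit within 500 bp of a start (y axis, percent) for all 65 genes and for each gene group (x axis), in the conservative list (diamonds) and in each replicate's own list (circles); dashed lines give the share of all protein-coding genes in the list of the same colour. MED genes stay between 32.0% and 36.0% in the 4 lists, while the Taf genes range from 13.3% to 33.3%.

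The groups' peaks recurred in the replicates to unequal counts, and no test between groups was made. The strongest peak was found in all 3 replicates at 12 of the 21 genes (57.1%). The share was 49.7% of all 3371 protein-coding genes with a summit. The MED genes had 8 of 25 members with a conservative summit (32.0%), and 7 of these peaks were found in all 3 replicates. The Polr2 genes had 6 of 13 (46.2%), of which 3 were found in all 3 replicates. The Taf genes had 5 of 15 (33.3%), of which 1 was found in all 3. The TfII genes had 1 of 9 (11.1%), found in all 3, and of Tbp, Trf and Trf2 only Trf2 had a summit, found in 2. The groups are small: the exact binomial 95% intervals run from 19.2% to 74.9% for Polr2, 11.8% to 61.6% for Taf, 14.9% to 53.5% for MED and 0.281% to 48.2% for TfII, and they overlap. The replicates' own lists had a summit at 34.7% ± 2.31 of MED genes, 30.8% of Polr2 genes in each list, 17.8% ± 7.70 of Taf genes and 18.5% ± 6.42 of TfII genes (SD, n = 3).

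The median signal of the strongest peak at the 21 genes was 209, with a range of 62.1 to 461, against a median of 173 over the 3371 protein-coding genes with a summit. The highest signal among those 3371 genes was 4494, so the strongest of the 21 stood far below it. Of the 21 genes, 13 exceeded the median of the 3529 conservative peaks at protein-coding starts (147) and 8 exceeded their upper quartile (244). Those 3529 include weaker peaks of genes that have several. With the strongest peak of each gene, the upper quartile was 311 over the 3371 genes and 337 over the 21. A q-value above 0.05 applied to the strongest peak of 4 of the 21 genes (19.0%), against 21.1% of all protein-coding genes with a summit.

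**Figure D2:**
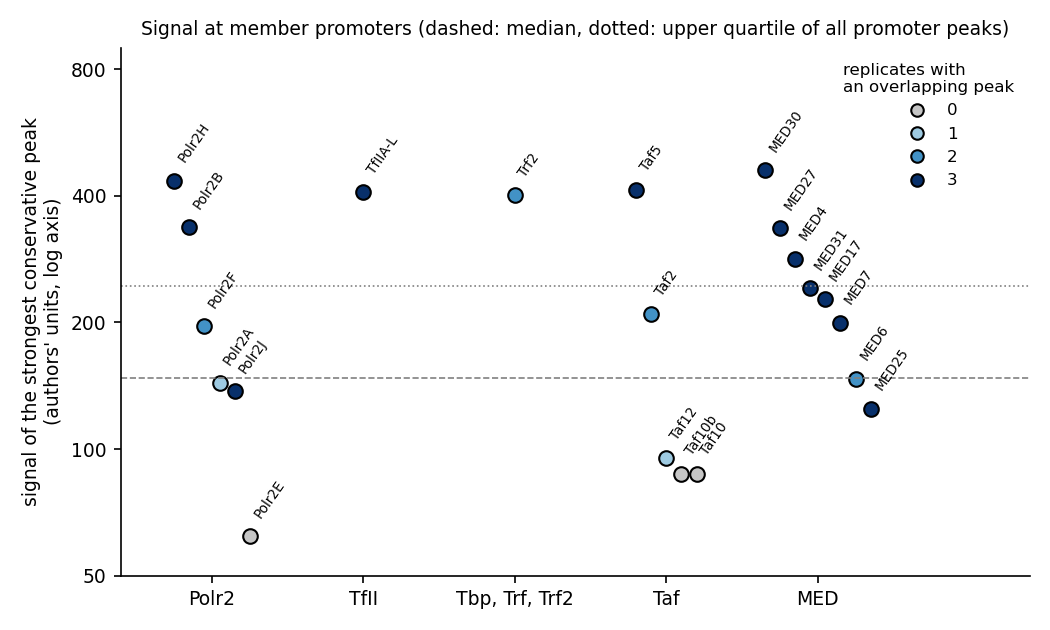
Signal of the strongest conservative peak within 500 bp of a start (y axis, authors' units, log scale) for the 21 genes by group (x axis), shaded by how many of the 3 replicates have an overlapping thresholded peak. The genes found in all 3 replicates range from 125 to 461, and Polr2E, Taf10 and Taf10b, found in none, lie at 62.1 and 87.3.

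Among the polymerase genes, the 2 strongest peaks lay at Polr2H and Polr2B. Polr2H encodes a small subunit that all nuclear polymerases share. Its signal was 435 (3L 21728698 to 21728876), with 109, 188 and 134 in the own lists of replicates 1, 2 and 3, where it ranked above 75.6%, 89.6% and 84.4% of peaks or level with them. The summit lay 137 bp upstream of Polr2H and 11 bp inside the 5' UTR of CG11247 on the opposite strand. Polr2B encodes the second-largest subunit, which forms the active centre together with the largest. Its signal was 337 (3R 14125508 to 14125877), with 104, 121 and 121 in replicates 1, 2 and 3. All 3 replicates were close to one another in rank there, at the 73.7, 78.0 and 81.4 percentiles of their lists. The summit was 98 bp upstream of Polr2B and 145 bp upstream of its divergent neighbour 140up.

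The other polymerase genes had weaker peaks with uneven support. Polr2F encodes another subunit shared by the nuclear polymerases and had a signal of 196 with the summit 14 bp upstream of its start. Its peak had 82.5 in replicate 1 and 83.8 in replicate 3 and was in replicate 2 only as a ranked peak of 36.3 that did not pass the threshold. Polr2A encodes the largest subunit, whose C-terminal repeats are phosphorylated during transcription. Its signal was 143, 94 bp inside the gene in the 5' UTR, with a thresholded peak of 64.6 in replicate 2 and only ranked peaks of 36.8 and 34.2 in replicates 1 and 3. Polr2J, whose product pairs with that of Polr2C in the core, had 137 with the summit 28 bp upstream. The overlapping peaks had 44.5, 50.1 and 57.6 in the replicates, so it was weak but present in all 3. A weaker Polr2J summit of 9.76 (q-value 0.888) lay 237 bp upstream, 2 bp inside the 5' UTR of CG15141, and overlapped the same replicate peaks. The summit of replicate 3 was 157 bp from the stronger one and nearer to the weaker. Polr2E, also a shared subunit, had 62.1 (q-value 0.473) and no thresholded peak in any replicate. Its ranked peaks there were 33.2, 32.7 and 22.4.

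The remaining 7 polymerase genes, among them Polr2C, Polr2D, Polr2G, Polr2I and Polr2K, had no summit within 500 bp in the conservative list or in any replicate's own list. Their nearest conservative summits were 2122 to 10703 bp away. Of the 5 subunits shared by the nuclear polymerases, 3 thus had a summit (Polr2E, Polr2F and Polr2H), and Polr2K and Polr2L had none.

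Among the general factors, the summits lay at TfIIA-L and Trf2. TfIIA-L encodes the precursor of the large TFIIA subunits. Its signal was 408 (3R 27253165 to 27253331), with 154, 148 and 103 in replicates 1, 2 and 3. The 3 replicate values were at the 86.7, 84.0 and 75.5 percentiles of their lists. The summit lay 178 bp upstream of the nearest TfIIA-L start, in an intron of a longer TfIIA-L transcript, and 70 bp upstream of pll, which encodes the Pelle kinase of the Toll pathway. Trf2 encodes a TBP-related factor that serves promoters without a TATA box. Its signal was 401 (X 8421234 to 8421455), 21 bp upstream of an internal start. The replicates differed widely there: 217 in replicate 1 (92.6 percentile), 50.4 in replicate 3 (30.7 percentile) and no overlapping peak in replicate 2, also not in its ranked list of peaks before thresholding. A weaker Trf2 summit of 61.3 (q-value 0.484) lay 49 bp inside its other start and overlapped no thresholded peak.

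The Trf2 window was 45.5% A and T, the lowest of the 20 member windows, and it alone among them held the GAGA element. It is shown here with that motif in capitals, from 50 bp before the summit to the start of the exon.

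Trf2 (chrX:8421294-8421364, plus strand): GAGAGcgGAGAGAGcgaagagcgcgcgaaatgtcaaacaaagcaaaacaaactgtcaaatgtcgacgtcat

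No conservative summit lay at Tbp, which encodes the TATA-binding protein itself, at Trf, or at the other 8 TfII genes, among them TfIIA-S, TfIIA-S-2, TfIIB, TfIIEalpha and TfIIEbeta. For these 8 the nearest was 832 bp away at TfIIS, which encodes an elongation factor that rescues stalled polymerase, and 37292 bp away at TfIIB. TfIIB, whose product bridges TBP and the polymerase, did have a thresholded summit within 500 bp in replicate 1 (52.5) and replicate 3 (85.8). Replicate 2 had none there.

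Among the TAF genes, Taf5 led. Taf5 encodes a WD-repeat subunit of the TFIID core. Its signal was 414 (2R 10879817 to 10879921), with 142, 136 and 126 in replicates 1, 2 and 3. The 3 values were nearly level in rank, at the 84.5, 81.7 and 82.4 percentiles. The summit was 159 bp upstream of Taf5 and 142 bp upstream of Pex6, a peroxisome biogenesis gene on the opposite strand. Taf2, whose product helps recognise the Initiator, had 209 with the summit 352 bp upstream, the farthest of the 21, inside the 5' UTR of a CalpB transcript on the opposite strand and 69 bp upstream of another start of CalpB, a calpain gene. It had 62.2 and 101 in replicates 1 and 2 and no peak in either list of replicate 3.

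Taf12, which encodes a histone-fold subunit, had 95.2 (q-value 0.108), with a thresholded peak in replicate 1 only (48.1) and ranked peaks of 36.7 and 19.7 in replicates 2 and 3. Its summit lay 31 bp upstream, between Taf12 and Ho, the heme oxygenase gene. Taf10 and Taf10b encode related histone-fold proteins, start 45 bp apart on opposite strands and share 1 peak of 87.3 (q-value 0.161). That peak passed the threshold in no replicate, where the ranked values were 28.0, 40.4 and 24.1. The 44 bp between their starts, given on the plus strand, hold none of the 6 motifs searched.

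Taf10 and Taf10b (chr2L:2767846-2767889): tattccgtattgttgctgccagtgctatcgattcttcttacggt

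The other 10 Taf genes had no conservative summit, among them Taf1, which encodes the largest TFIID subunit, Taf11, Taf12L, Taf13 and Taf3. Their nearest summits were 2400 to 112681 bp away. Taf4 had a thresholded summit within 500 bp of a start in replicate 1 (91.0) and replicate 3 (99.3), and again none in replicate 2.

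By an overlap of 1 bp, the peak was found in all 3 replicates at 7 of the 8 MED genes with a summit. At MED31 and MED17 the replicate 3 summit lay 145 and 160 bp from the conservative one. MED30, a metazoan subunit of the head, had the highest signal of all 65 genes, 461 (3L 654177 to 654372). Its values were 141, 192 and 163 in replicates 1, 2 and 3. The summit lay 187 bp upstream of MED30 and 87 bp upstream of Rev1, which encodes a translesion DNA polymerase. MED27 had 335 (3R 5654939 to 5655076), with 114, 116 and 109 in the replicates. These 3 values were at the 77.6, 76.7 and 77.6 percentiles, within a narrow range of ranks. Its summit was 132 bp upstream of MED27 and 146 bp upstream of elm.

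The middle-module genes MED4, MED31 and MED7 had 283, 242 and 200. MED4 had 108, 101 and 71.4 in the replicates and no other protein-coding start within 500 bp of its summit, 168 bp upstream. MED31 had 85.6 and 88.1 in replicates 1 and 2 but only 3.71 in replicate 3, where that peak was at the 0.616 percentile of the list, near its bottom. Its start is also the start of slx1, a nuclease gene on the same strand, and the summit lay 4 bp inside the 5' UTR of CG9775 on the other. MED7 had 50.4, 64.7 and 58.1, with the summit 99 bp upstream and 179 bp upstream of Cap-H2, a condensin II gene.

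The head genes MED17 and MED6 each had 2 conservative summits. At MED17 the stronger had 227, with 74.3, 99.3 and 68.8 in the replicates, 188 bp upstream of MED17 and 177 bp upstream of CG12321. The weaker, 61.7, lay 13 bp inside MED17 and overlapped the same replicate peaks. At MED6 the summits had 147 and 117, each in the 5' UTR just downstream of a different start. The stronger had 75.04 and 49.5 in replicates 2 and 3 and a ranked peak of 50.2 in replicate 1 that did not pass. MED25, which encodes an activator-binding subunit, had 125, the lowest of the MED genes with a summit, with 70.4, 77.2 and 35.5 in the replicates. In replicate 3 that peak was at the 5.82 percentile of the list. The MED25 summit was 15 bp upstream, and its window held the only DRE among the members, the site of Dref and BEAF-32.

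The other 17 MED genes had no conservative summit, among them MED1, MED10, MED11, MED14 and MED15. MED14 encodes the backbone of Mediator and MED15 a tail subunit contacted by activators. MED16, MED19 and MED23 had a thresholded summit in 1 replicate each, with 38.4 in replicate 3, 45.5 in replicate 1 and 37.4 in replicate 2. MED21 lay 2236942 bp from the nearest summit and MED26, on chromosome 4, 238298 bp.

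In all, 44 of the 65 genes had no conservative summit within 500 bp, and their median distance to the nearest one was 5741.5 bp. Of these, 1, TfIIS, lay within 1000 bp of a summit. A replicate's own list held a summit at 5 of the 44, which are TfIIB, Taf4, MED16, MED19 and MED23.

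**Figure D3:**
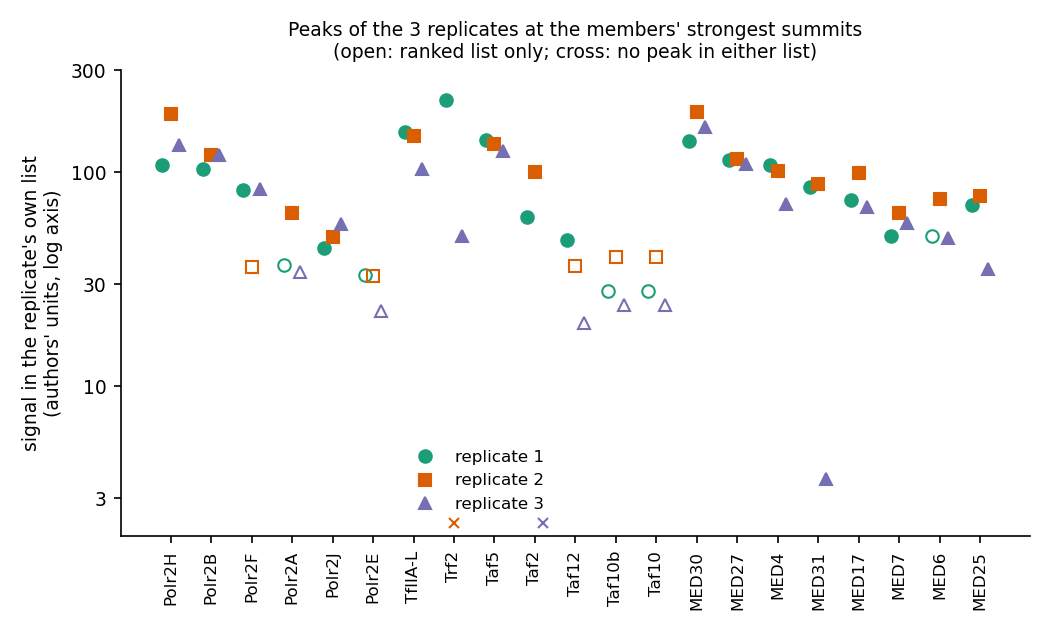
Signal of the overlapping peak in each replicate (y axis, authors' units of that replicate's list, log scale) at the strongest summit of each of the 21 genes (x axis). Filled symbols passed the threshold, open ones are in the ranked list only and crosses mark no peak in either list, as for Trf2 in replicate 2 and Taf2 in replicate 3.

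Most of the summits lay near the start of a neighbour on the opposite strand. At 16 of the 21 genes (76.2%) the strongest summit was also within 500 bp of a start on the opposite strand, against 38.2% of the 3371 protein-coding genes with a summit. At 11 of these 16 it lay between genes, at 4 in a 5' UTR and at TfIIA-L in an intron. At 9 of the 21 genes (42.9%, against 19.5%) another gene's start was nearer to the summit than the member's own. Whether such a peak belongs to the member or to its neighbour cannot be told apart from these lists. With only summits whose nearest protein-coding start was the member's, 13 of 65 genes (20.0%) had one, against 20.0% of all protein-coding genes, so under that rule the shares were equal.

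The arrangement of the genes moved with the share. Of the 65 genes, 39 have an opposite-strand protein-coding start within 500 bp of a start of their own. Among all 13945 protein-coding genes, 3878 are so arranged. Of the 39, 17 (43.6%) had a conservative summit, against 36.1% of the 3878. Of the other 26 genes, 4 (15.4%) had one, against 19.6%. These 4 were Polr2E, Polr2F, MED4 and Trf2. Of the 39 genes, 22 had no conservative summit within 500 bp, among them Trf and MED20. These 2 start 47 bp apart on opposite strands, and their nearest summits were 1072 and 1025 bp away. Gene length and number of starts were close in members with and without a summit. Median lengths were 1305 and 1250 bp, and 18 of 21 and 40 of 44 had 1 annotated start. Over all protein-coding genes both differed. There the median lengths were 4189 bp with a summit and 1862 bp without, and 1742 of 3371 and 8504 of 10574 had 1 start.

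The strongest summit lay upstream of the start at 19 of 21 genes (90.5%, exact binomial 95% interval 69.6 to 98.8), against 74.0% of all protein-coding genes with a summit. Polr2A and MED6 were the exceptions. Position and recurrence went together. The 12 conservative summits whose peak was found in all 3 replicates were all upstream, at a median of −134.5 bp (range −188 to −15). Of these, 10 lay 98 to 188 bp from the start. Over the other 9 genes the median was −21 bp (range −352 to 94). Over all protein-coding genes the medians were −130 bp for the 1674 with full support and −54 bp for the other 1697. The members thus followed the direction of all genes. These positions are those of the conservative summits, and a replicate's own summit can lie elsewhere within the overlapping peak. In replicate 3 it was 145, 157 and 160 bp away at MED31, Polr2J and MED17. Of the 12 genes, 9 held when each replicate's summit had to lie within 100 bp.

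**Figure D4:**
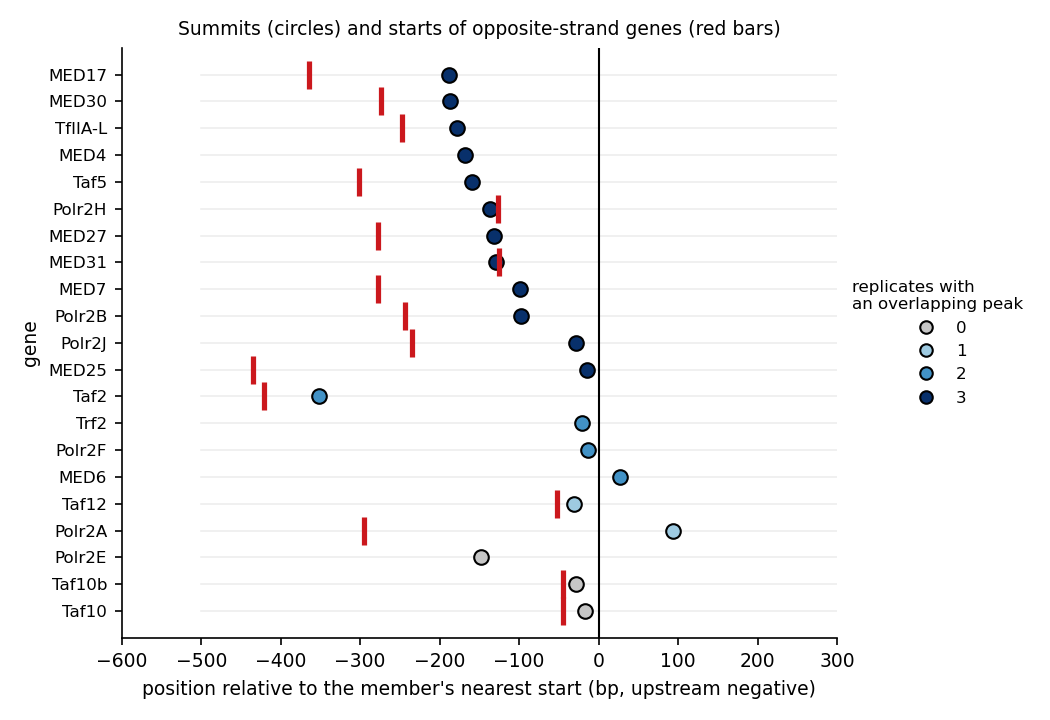
Position of the strongest summit (circles, shaded by the number of replicates with an overlapping peak) and of the nearest opposite-strand start within 500 bp of that summit (red bars) relative to the member's nearest start (x axis, bp) for the 21 genes (y axis). Summits of peaks found in all 3 replicates mostly lie 98 to 188 bp upstream. Polr2E and Taf2 also lie far upstream with less support.

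The sequence at the summits was rich in A and T. The windows of 50 bp on either side of the 20 distinct summits had a median of 68.3% A and T (range 45.5 to 84.2), against 57.4% for the 3529 conservative summits at protein-coding starts. Composition moved with support. The 12 windows at peaks found in all 3 replicates ranged from 62.4% to 84.2% with a median of 69.8%. The other 8 ranged from 45.5% to 68.3% with a median of 52.0%. The same 2 medians over all promoter summits were 64.4% and 54.5%. Composition also moved with gene arrangement: promoter summits with starts on both strands had a median of 65.3% and those with starts on 1 strand 55.4%, while the members' medians were 69.3% (15 summits) and 49.5% (5 summits). The part of either in the other was not tested.

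**Figure D5:**
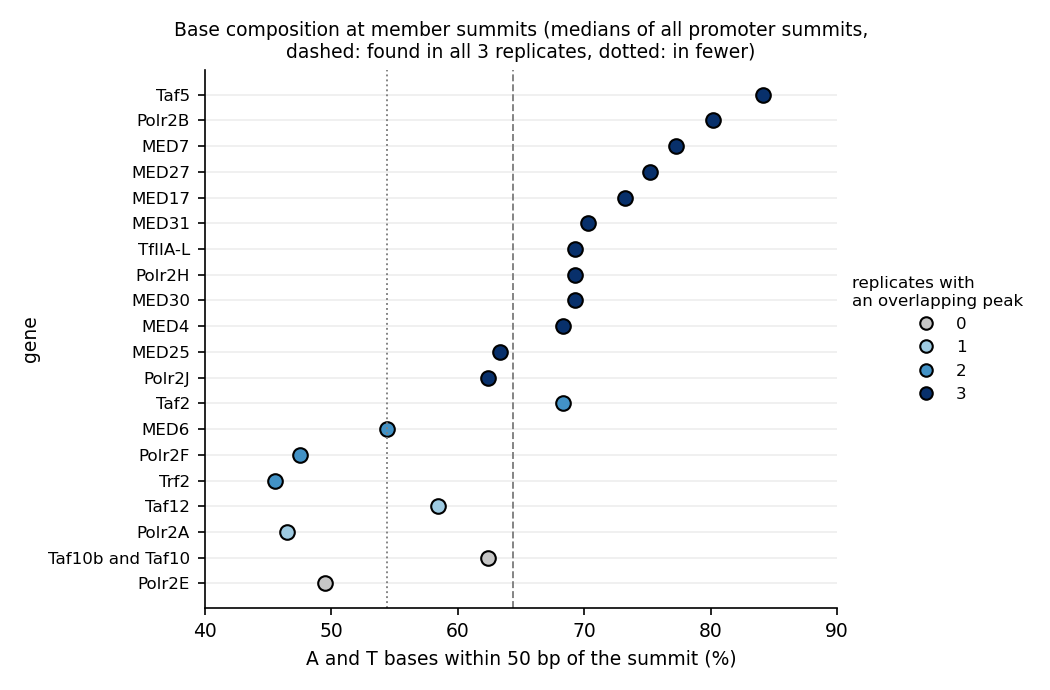
Share of A and T within 50 bp of each of the 20 distinct summits (x axis, percent; y axis, gene), shaded by the number of replicates with an overlapping peak; lines give the medians of all promoter summits. Taf5 is highest at 84.2% and Trf2 lowest at 45.5%. The 12 summits of peaks found in all 3 replicates are all at or above 62.4%.

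Letters were searched on both strands in the 20 windows and in the 3529 windows of all promoter summits. TATAAA was in 6 windows (30%, against 13.6% of all promoter windows), those of Polr2H, Taf5, Taf2, Taf12, Taf10b with Taf10, and MED17. Among all promoter summits with starts on both strands its share was 20.7%. The Initiator core TCAGT was in 4 windows (20%, against 20.9%, or 16.3% with starts on both strands). The GAGA element GAGAG was in 1 (5%, against 19.8%, or 7.96% with starts on both strands). The DRE, TATCGATA, was in 1 (5%, against 1.84%, or 4.33% with starts on both strands). The E-box CAGCTG and the Ohler 1 core GGTCACAC were in none, against 6.04% and 1.22%, or 5.59% and 2.93% with starts on both strands. No motif contains another, and a match is not evidence of a site in use.

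Other genes of the transcription machinery, whose symbols the rule does not take, were counted the same way. Of 86 such genes, 28 had a conservative summit at a start (32.6%, against the 24.2% above). A peak found in all 3 replicates lay at 18 of the 86, where the share of all protein-coding genes was 12.1%. Pausing and elongation factors had 8 of 14, among them TH1 (432) and Nelf-E (412), which encode subunits of the pausing factor NELF, and Nelf-A (191). TFIIH had 4 of 10, with Ssl1 (2228), mrn (498) and Tfb4 (233), all core subunits found in all 3 replicates. The signal at Ssl1 was above that of every one of the 65 genes. SAGA and ATAC, co-activator complexes built around a histone acetyltransferase, had 6 of 16, led by Gcn5 (897), that acetyltransferase, Ada3 (208) and Ada2b (208). Integrator, which cleaves nascent RNA, had 3 of 11, with IntS11 (851), IntS9 (428) and IntS6 (408). The Mediator kinase module had 1 of 4, skd (241), and the TBP regulators 1 of 3, NC2alpha (585), a subunit of a repressor that binds TBP. RNA polymerases I and III had 3 of 17, with Polr3E (241), Polr3F (176) and Polr1D (111). The Paf1 complex had 1 of 5, hyx (75.6), and the histone chaperone FACT 1 of 2, dre4 (170). The testis TAF genes outside the rule had 0 of 4.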

How the data were processed

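Peak lists of 3 replicates and of the whole series were used, on dm6. Per the labels, chromatin was sonicated to 200 to 800 bp. Which aligner and caller made them is not given in the sources used here. Per the notes deposited with the lists, each replicate's lists come from its own alignment and the series lists from all 3. The authors deposited a signal per peak, a score that rises as the irreproducible discovery rate (IDR) falls, starting at 830 in the thresholded lists, and −log10 values of the q-value and the IDR. Another 56 columns, with values of single compared sets in ranked lists, were left out.

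From these, summits were placed within 500 bp of any annotated start (Ensembl release 115), and a peak counted as found in a replicate when it overlapped that replicate's thresholded peak by 1 bp. Of peak ends, 0 lay beyond the chromosome lengths of the RefSeq assembly. Every member with a summit was named, up to 5 without one per group in symbol order, and up to 3 genes of each other list by signal. Polr2L, TfIIS, Taf4, MED16, MED19, MED20, MED21, MED23 and MED26, and replicate values beyond the 2 strongest per group and those found in all 3, were added after their values were seen. There is no test: 1 group has no comparison, and genes are not replicates. The members and lists were chosen with earlier results of these data known. The functions were tested on simulated positions. Computation used pandas 2.3.3 and NumPy 2.4.6 under Python 3.11.15, with intervals from SciPy 1.17.1 and plots from matplotlib 3.10.9.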

Additional observations from a re-analysis of the deposited data

How the results depend on the processing

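The count of 21 genes ran from 14 (21.5%, against 15.6% of all genes), where the peak had to overlap the start, to 24 (36.9%, against 26.8%) on the list of 12445 peaks, except that it was 13 (20.0%, against 20.0%) where the nearest start had to be the member's. The TfII count of 1 became 2 with a window of 1000 bp and 3 on the series lists of 8933 and 12445 peaks, where TfIIB and TfIIEbeta have summits. The Taf count of 5 became 2 on the lists of 8933 and 9110 peaks, at an IDR of 0.001 or less and at a q-value of 0.05 or less, without Taf12, Taf10 and Taf10b. Full support was found at 12 genes, and at 9 (13.8%, against 11.6% of all genes) when each replicate's summit had to lie within 100 bp, where the gap to all genes was smaller than the 18.5% against 12.1% reported. Leaving out replicate 1, 2 or 3 gave 13 (20.0%), 14 (21.5%) and 13 (20.0%) genes, against 13.4%, 12.9% and 15.1% of all genes. No paired analysis was possible because there is 1 group. The cause was not tested. Read depth was not used, so what it limits was not tested.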

Other observations

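Replicate 2 lacked peaks that replicates 1 and 3 shared at 4 of these genes. At Trf2 no peak of replicate 2 overlapped the conservative peak, and at Polr2F, TfIIB and Taf4 replicate 2 had no thresholded summit within 500 bp of a start while replicates 1 and 3 did. Only replicate 1 lacked a summit at 1 gene, MED6, and only replicate 3 at 1 gene, Taf2. Replicate 2 had more thresholded peaks (7920) than replicates 1 (7449) and 3 (5844), and it had a thresholded peak at Polr2A, where the others had none.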
